A study of Homo sapiens with 4 samples.

Results

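The transcriptome of EpCAM-negative HCCLM3 cells given a miR-429 mimic was set against that of EpCAM-positive HCCLM3 cells given a control antagomir. HCCLM3 is an established human hepatocellular carcinoma cell line, and its cells had been sorted magnetically by EpCAM, a surface adhesion molecule of epithelial cells. The comparison asks whether supplying miR-429 brings EpCAM-negative cells to the state of EpCAM-positive cells. It uses 2 of the 4 Affymetrix U133 Plus 2.0 arrays of the series, 1 on each side. The miR-429 mimic array carried RNA of EpCAM-negative cells transfected with 100 nM of the mimic, a synthetic duplex of the mature microRNA. The EpCAM-positive control array carried RNA of EpCAM-positive cells that had taken up 40 µM Antagomir-NC, a cholesterol-conjugated antisense control. The other arrays held EpCAM-negative cells with 100 nM miR-NC mimic (the NC mimic array) and EpCAM-positive cells with 40 µM Antagomir-429, an antisense RNA against miR-429. All treatments lasted 4 days. The mimics were delivered by lipid transfection and the antagomirs were added to the medium. The 4 samples share the line, and no label says that any came from a separate culture or sort. Sorted fraction and reagent differ together between the compared arrays, so their parts in any difference cannot be told apart.

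Differences are log2 signals of the miR-429 mimic array minus those of the EpCAM-positive control array, so a value above 0 is higher in the mimic cells and 1 is 2-fold. Each gene was represented by the brightest probe set that names it alone, by the mean of the 4 arrays. A gene was kept if that mean was at or above the 75th percentile of all non-control probe sets, a signal of 265.6. Of 19775 genes, 8130 passed. At the edge, CDC14B passed with a mean signal of 265.6 and FCMR, at 265.5, did not. Their differences were 0.13 and 1.11. With 1 array a side there is no replicate spread, and no difference below has a test. Each array pools many cells, so fewer cells of a kind and less RNA per cell cannot be told apart. As a yardstick of scatter, the robust SD of the difference was 0.44 over the dimmest of 4 equal signal bins and 0.24 over the brightest.

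The miR-200 family, of which miR-429 is a member, consists of small RNAs that guard the epithelial state by silencing the transcriptional repressors ZEB1 and ZEB2. A microRNA pairs through its seed with sites in target transcripts and lowers their stability or translation. EpCAM marks hepatic progenitors and a tumour-initiating fraction of liver cancers, in which it is a target of Wnt signalling. NF-kB, the ERK branch of MAPK signalling and the hypoxia-inducible factors are stimulus-driven pathways, each with a well known set of rapidly transcribed targets.

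The mature family members are shown because the shared seed defines which targets a miR-429 mimic could reach. They are RefSeq sequences of build GRCh38.p14, 5′ to 3′, with the seed (bases 2 to 8) in capitals.
hsa-miR-429: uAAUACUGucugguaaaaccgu
hsa-miR-200b-3p: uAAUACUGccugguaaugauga
hsa-miR-200c-3p: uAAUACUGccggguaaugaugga
hsa-miR-200a-3p: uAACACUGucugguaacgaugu
hsa-miR-141-3p: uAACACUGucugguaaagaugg
miR-429, miR-200b-3p and miR-200c-3p share the seed AAUACUG, whereas miR-200a-3p and miR-141-3p share AACACUG. The mature miR-429 lies on the plus strand at chr1:1169055-1169076, in the same cluster as miR-200b and miR-200a.

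Each array had a trimmed mean signal of 500.1 after the authors' scaling. Their median signals lay between 62.7 and 67.1. On the log2 scale the miR-429 mimic array lay -0.39 from the EpCAM-positive control array by its poly-A spike-ins and -0.23 by its hybridisation controls, and the part of this in the differences was not tested. The actin 3′ to 5′ ratio was 2.63 on the mimic array and between 3.07 and 3.41 on the other arrays. The keratins of hepatoma cells were abundant, KRT8 with signals of 28365 to 33449 and KRT18 with 42723 to 50498 over the 4 arrays. Other defining markers were dim. AFP, the fetal hepatocyte protein, had 91 to 119, the epithelial cadherin CDH1 had at most 69, and KRT19 at most 12. Among listed markers of leukocytes, endothelium, stroma and red cells, 2 of 25 passed the filter: the collagen COL1A1 (-0.50) and the red-cell globin HBB (0.34). The 3 COL1A1 probe sets past the filter lay between -1.30 and -0.23. Of the markers under the filter whose levels were examined, the brightest were the stromal proteoglycan DCN (167 to 384), the endothelial adhesion molecule PECAM1 (126 to 234) and the collagen COL3A1 (69 to 164). The leukocyte antigen PTPRC had at most 36. The endothelial protein VWF had 126 on the mimic array, 27 on the control, 37 on the NC mimic array and 102 with antagomir-429. The part of such markers in the differences was not tested.

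In all, 105 of 8130 genes (1.29%) were at least 2-fold higher in the miR-429 mimic cells than in the EpCAM-positive control and 35 (0.431%) were at least 2-fold lower, 140 genes (1.72%) together. The median difference over all genes was -0.03, and 3825 genes (47.0%) lay above 0. The genes past 2-fold were dimmer than the rest, with a median signal of 509 for those higher and 474 for those lower against 1276 for all. Quantile normalization gave 91 genes higher and 58 lower. In the brightest of the 4 signal bins 7 genes were higher and 0 were lower. None of the 140 was under the median signal of all probe sets, 52.9, on either of the compared arrays.

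Against the EpCAM-positive control array, the miR-429 mimic array was not nearer than the NC mimic array of the same fraction. The NC mimic array had 60 genes higher and 60 lower there, 120 together (1.48%), with a robust SD of 0.31 against 0.35 for the miR-429 mimic array. Against the antagomir-429 array, the other EpCAM-positive sample, the order was the other way round. The miR-429 mimic array had 138 genes past 2-fold from it (robust SD 0.32) and the NC mimic array 214 (0.36). These comparisons share arrays, so they are given side by side only. The EpCAM-positive arrays differed least from each other, with 39 genes past 2-fold and a robust SD of 0.21. Among the 6 pairs the EpCAM-negative arrays had the widest scatter between them (robust SD 0.44, 182 genes past 2-fold), while the NC mimic and antagomir-429 arrays had the most genes past 2-fold, the 214 above.

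**Figure D1:**
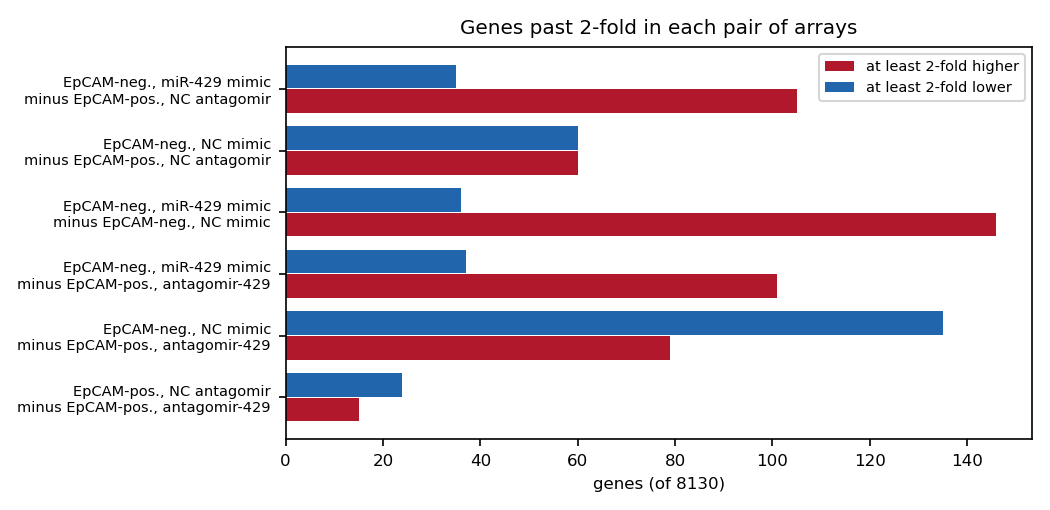
Genes at least 2-fold higher (red) and lower (blue) among 8130, on the horizontal axis, for each of the 6 pairs of arrays, with the array subtracted named second. The top pair is the comparison described here, with 105 genes higher and 35 lower, and the bottom pair, the EpCAM-positive arrays, has the shortest bars (15 and 24).

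EPCAM itself did not separate the sorted fractions at the level of mRNA. By its only probe set, the signal was 1106 on the NC mimic array of EpCAM-negative cells, 1235 on the control array and 913 on the antagomir-429 array of EpCAM-positive cells. On the miR-429 mimic array it was 3838. The mimic array thus stood above the 3 others, which lay close together. The difference from the EpCAM-positive control was 1.64, or 3.11-fold. Surface protein, on which the cells were sorted, was not measured here.

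Of the 24 genes in a list of EpCAM and liver tumour-initiating markers, 10 passed the filter, 12 were too dim and 2 were not named. ICAM1, an adhesion molecule that is also an NF-kB target, was the only other member past 2-fold. It was so by its brightest probe set (1.17) but not by its other probe set past the filter (0.62). SOX9, a factor of biliary and progenitor cells, had a signal of 1503 on the mimic array and 803 to 846 on the others, a difference of 0.83. The hyaluronan receptor CD44 had 0.46, MYC 0.26 and the pluripotency factor KLF4 0.14. The mucin-like surface protein CD24 was not higher than in the control (5289 and 5745, -0.12), while the NC mimic array had 3232. Values other than those of EPCAM and ICAM1 were picked once they were known. The list's median was 0.20 against -0.03 over all genes, and 2 of 10 members were at least 2-fold higher, against 1.29% of all genes. The median was 0.07 with the filter on low signals set at the median of all probe sets, and its direction turned, to -0.085, with no filter. The mimic array was the highest of the 4 for 8 of the 10, against 28.1% of all genes.

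**Figure D2:**
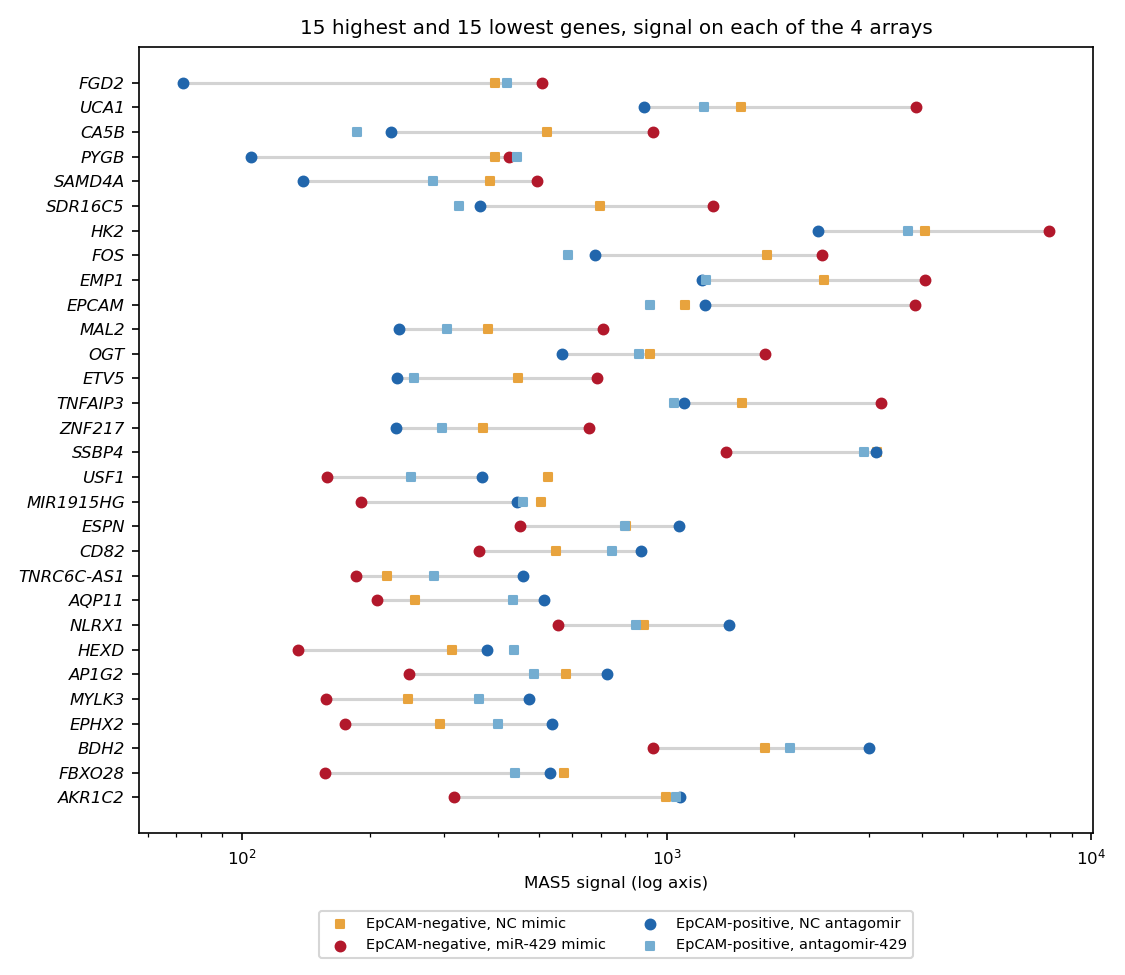
MAS5 signal (horizontal log axis) on each array for the 15 genes with the highest and the 15 with the lowest difference, joined by a grey line between the miR-429 mimic array (red) and the EpCAM-positive control array (dark blue). EPCAM has 3838 on the mimic array and 913 to 1235 on the 3 others, whereas the top line, FGD2, rests on a low control array (73).

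The highest difference of all belonged to FGD2, a guanine nucleotide exchange factor of CDC42, with signals of 508 on the mimic array and 73 on the control (2.81). The other arrays had 395 and 422, so the control array alone was low. The glycogen phosphorylase PYGB had the same shape, with 425 and 105 (2.02) beside 395 and 446. Both differences therefore shrink when the antagomir-429 array is the reference, FGD2 to 0.27 and PYGB to -0.07. UCA1, a long non-coding RNA of urothelial and liver cancers, had 3861 on the mimic array, 885 on the control, 1496 on the NC mimic array and 1226 on the antagomir-429 array (2.13). For UCA1 the mimic array stood above all others. CA5B, a mitochondrial carbonic anhydrase, had 927 and 224 (2.05), with 522 on the NC mimic and 187 on the antagomir-429 array. SDR16C5, a retinol dehydrogenase, had 1288 and 365 (1.82), with 696 and 324. In both of these genes each EpCAM-negative array lay above each EpCAM-positive one. SAMD4A, an RNA-binding translational repressor, had 494 and 139 (1.83), with 384 on the NC mimic array and 282 with antagomir-429. Its other probe set past the filter gave 0.53, under 2-fold.

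Further down the same ranking, EMP1, an epithelial membrane protein of the claudin-like superfamily, had 4050 on the mimic array and 1215 on the control (1.74), with 2347 on the NC mimic and 1238 on the antagomir-429 array. OGT, which attaches O-GlcNAc to nuclear and cytosolic proteins, had 1702 and 568 (1.58) by its brightest probe set, but 0.84 and 0.29 by the others past the filter. ZNF217, a zinc finger repressor amplified in carcinomas, had 657 and 231 (1.51). It lay at 369 on the NC mimic and 296 on the antagomir-429 array, so it too was highest with the mimic.

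The lowest difference belonged to AKR1C2, an aldo-keto reductase of steroid and xenobiotic metabolism, which had 317 on the mimic array and 1075 on the control, with 999 and 1053 on the NC mimic and antagomir-429 arrays (-1.76). The mimic array alone was low. Its probe set can bind other AKR1C transcripts, and the other AKR1C2 probe set past the filter gave -0.85. BDH2, a hydroxybutyrate dehydrogenase, had 930 and 2989 (-1.68), with 1703 and 1951. The soluble epoxide hydrolase EPHX2 had 175 and 536 (-1.62), with 292 and 402. For these last genes the mimic and control arrays were the extremes and the others lay between them.

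FBXO28, an F-box subunit of a ubiquitin ligase, had 157 on the mimic array and 439 to 573 on the others (-1.76) by its brightest probe set. Its other probe sets past the filter gave -0.45 and 0.77, so they disagree in direction. AP1G2, an adaptor subunit of vesicle coats, had 247 and 725 (-1.55), and HEXD, a hexosaminidase, had 135 and 377 (-1.48). MYLK3, a myosin light chain kinase, had 158 and 475 (-1.59), but 0.07 by its other probe set past the filter. NLRX1, a mitochondrial NOD-like receptor, had 554 and 1401 (-1.34), but -0.14 by its other probe set. The tetraspanin CD82, a metastasis suppressor, had 362 and 873 (-1.27), but -0.91 by its other probe set past the filter. The water channel AQP11 had 208 and 515 (-1.31) and the actin bundler ESPN 451 and 1071 (-1.25). The transcription factor USF1 had 159 and 369 (-1.21), with 527 on the NC mimic array and 251 with antagomir-429. The remaining genes of the lowest 15 were TNRC6C-AS1 (-1.30), MIR1915HG (-1.22) and SSBP4 (-1.17), an ssDNA-binding protein whose other probe set past the filter gave 0.05. Over all named genes with more than 1 probe set past the filter, the probe sets lay on the same side of 0 for 19 of 25.

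NF-kB and inflammatory genes stood highest of the 23 lists examined. Of 46 members 25 passed the filter, 17 were too dim and 4 were not named. Of the 25, 9 were at least 2-fold higher and 0 lower, against 1.29% and 0.431% of all genes. The median was 0.80, and 23 of 25 lay above 0, against 47.0% of all genes. The feedback inhibitor TNFAIP3, a ubiquitin-editing enzyme, had 3193 on the mimic array, 1096 on the control, 1508 on the NC mimic array and 1040 on the antagomir-429 array (1.54). The complement component C3 had 4011 and 1487 (1.43), with 1830 and 2872, and the cytokine IL6 had 1139 and 455 (1.32), with 806 and 566. The mitochondrial superoxide dismutase SOD2 had 1565 and 652 (1.26), with 790 and 540. For each of these genes the mimic array was the highest of the 4.

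ICAM1 had 1269 on the mimic array, 566 on the control, 831 on the NC mimic array and 448 with antagomir-429 (1.17). By its other probe set past the filter the difference was 0.62. LCN2, a siderophore-binding protein of inflammation, had 537 and 249 (1.11), with 216 and 188. The immediate early gene IER3 had 27392 and 9931 (1.46), with 24163 on the NC mimic and 6525 on the antagomir-429 array. IER3 was thus high in both EpCAM-negative samples, while LCN2 was high with the mimic only. The list also held NF-kB subunits and inhibitors, of which RELB (1.15) and the nuclear inhibitor NFKBIZ (1.02) were past 2-fold. NFKB2 had 0.82, NFKB1 0.58, RELA 0.15 and the inhibitor NFKBIA 0.30. The chemokine CXCL2 had 0.80, the cytokines IL32 and LIF 0.78 and 0.61, and complement factor CFB 0.80. Below 0 lay SOCS3 (-0.03) and CEBPD (-0.26). The members from RELB onwards were picked once their values were known.

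Among the 25 members the mimic array was the highest of the 4 for 22, against 28.1% of all genes. The same 25 genes had a median of 0.29 on the NC mimic array over the control, with 18 above 0 and 2 past 2-fold. Over all genes these shares were 50.5% and 1.48%. Against the antagomir-429 array the mimic median was 0.91, with 24 of 25 above 0. The median stayed positive under all 9 alternatives, between 0.54 and 0.92.

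**Figure D3:**
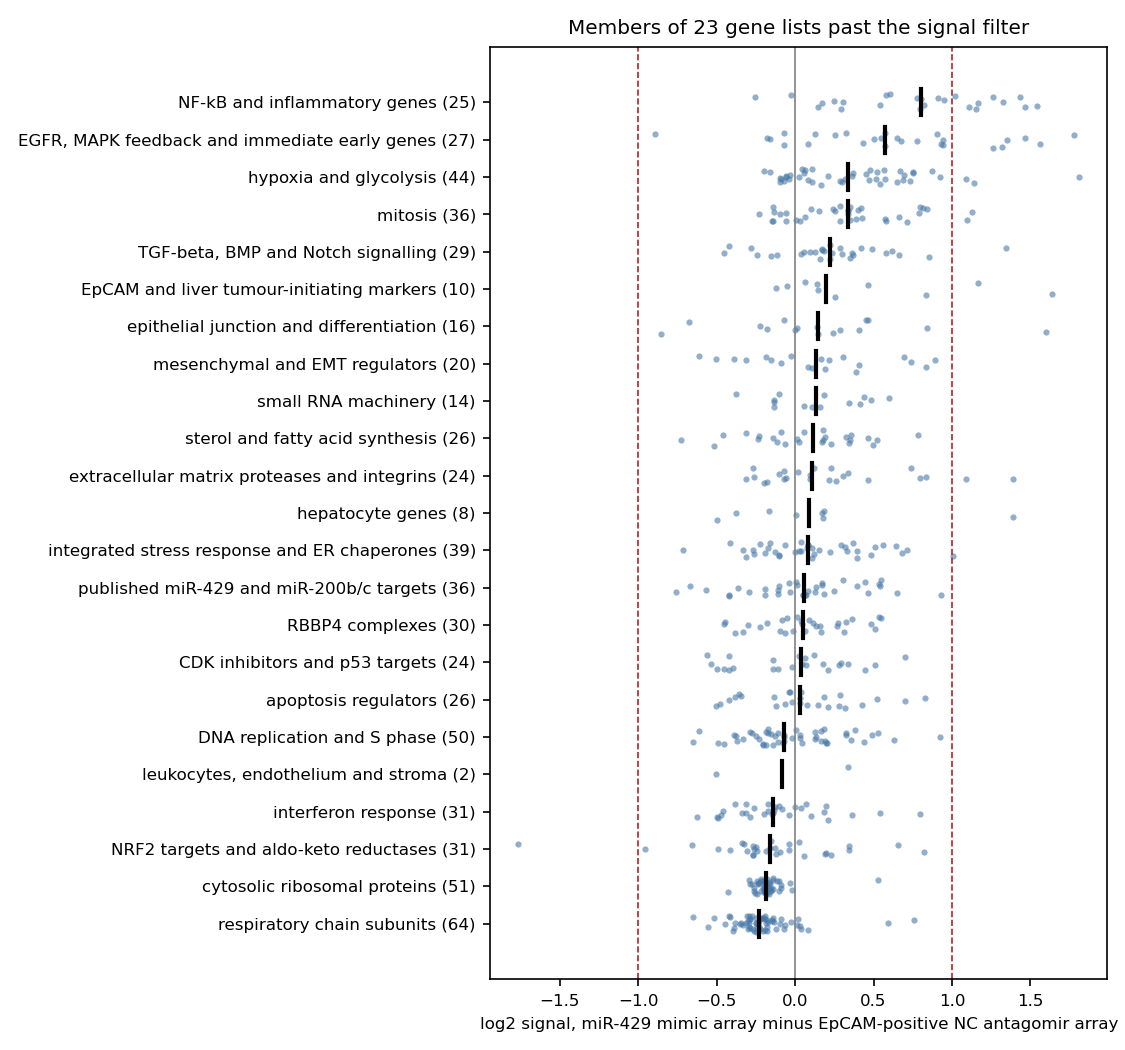
Difference of each list member past the filter (points, log2, horizontal axis) for 23 gene lists, with the number of members in brackets, the median as a black bar and 2-fold as dashed red lines. NF-kB genes have the highest median (0.80) and respiratory chain subunits the lowest (-0.23).

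The promoters of TNFAIP3 and IL6 are shown because these genes were among the highest of that list and carry letters that NF-kB is known to bind. Each window runs from 250 bases before to 50 after the RefSeq gene start, in build GRCh38.p14, and capitals mark matches to GGNNTTTCC on either strand.
TNFAIP3, chr6:137867009-137867308, plus strand: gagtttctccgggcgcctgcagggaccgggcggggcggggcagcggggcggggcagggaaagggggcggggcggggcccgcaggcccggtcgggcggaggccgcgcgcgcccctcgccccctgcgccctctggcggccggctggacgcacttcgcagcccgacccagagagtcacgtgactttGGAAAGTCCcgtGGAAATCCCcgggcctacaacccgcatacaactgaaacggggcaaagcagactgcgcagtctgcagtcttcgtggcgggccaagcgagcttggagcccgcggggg
IL6, chr7:22726950-22727249, plus strand: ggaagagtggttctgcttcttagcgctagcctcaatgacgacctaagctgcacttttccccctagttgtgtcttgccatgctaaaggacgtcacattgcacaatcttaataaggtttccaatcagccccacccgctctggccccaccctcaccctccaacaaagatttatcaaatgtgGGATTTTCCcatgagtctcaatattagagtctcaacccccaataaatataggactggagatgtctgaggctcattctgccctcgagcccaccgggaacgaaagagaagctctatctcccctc
TNFAIP3 holds 2 matches, which begin at -67 and -55 from the gene start, and IL6 holds 1, at -72. A promoter was found for 19 measured list members, and 9 of these hold such a match (47.4%), as do 6.63% of promoters of all genes past the filter and 6.26% of all 27305 promoters. The list was made of known NF-kB and inflammatory genes, so an excess of these letters was built in and says nothing about these arrays. Among all genes at least 2-fold higher, 10 of 74 promoters found hold a match (13.5%), and 4 of these 10 belong to list members. Among genes at least 2-fold lower it was 1 of 27 (3.70%). A match is a run of letters and was not tested as a binding site.

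Immediate early genes and feedback targets of EGFR and MAPK signalling came next, with a median of 0.57 over 27 measured members of 39. Of these, 6 were at least 2-fold higher, 0 lower, and 22 above 0, against 1.29%, 0.431% and 47.0% of all genes. The 6 include IER3, which is also on the NF-kB list, so the lists are not separate. FOS, a subunit of AP-1, had 2325 on the mimic array, 679 on the control, 1727 on the NC mimic array and 587 on the antagomir-429 array (1.78). The ETS factor ETV5 had 685 and 232 (1.56), with 446 and 255. ETV4, its paralog, had 751 and 313 (1.26), with 850 and 375. In all 3 genes both EpCAM-negative arrays lay above both EpCAM-positive ones, and for ETV4 the NC mimic array was the highest.

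The phosphatases that shut off MAP kinases followed. DUSP5 had 4883 on the mimic array, 1959 on the control, 3819 on the NC mimic array and 1880 with antagomir-429 (1.32). DUSP4 had 3072 and 1204 (1.35), with 2537 and 2008. DUSP1, another member, had 0.65. Of the other AP-1 subunits, FOSL1 had 0.94, JUN 0.43, JUND 0.13, FOSL2 -0.07 and JUNB -0.18. AP-1 genes thus did not share a direction. Among the receptors EGFR had 0.32, MET 0.94 and ERBB3 -0.07. ERBB2 was the lowest of the list at -0.89, with 734 on the mimic array and 1303 to 1361 on the others. DUSP1, these AP-1 genes and the receptors were picked once their values were known.

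The NC mimic array had a median of 0.27 over the control for these 27 genes, with 5 at least 2-fold higher. Over all 8130 genes that count was 60. Both EpCAM-negative arrays were above both EpCAM-positive arrays for 14 of 27, and for 16 of 25 NF-kB genes, against 17.5% of all genes. The FOS promoter is shown as the window of the highest member, with capitals for matches to TGACGT, the core of the cyclic AMP response element.
FOS, chr14:75278578-75278877, plus strand: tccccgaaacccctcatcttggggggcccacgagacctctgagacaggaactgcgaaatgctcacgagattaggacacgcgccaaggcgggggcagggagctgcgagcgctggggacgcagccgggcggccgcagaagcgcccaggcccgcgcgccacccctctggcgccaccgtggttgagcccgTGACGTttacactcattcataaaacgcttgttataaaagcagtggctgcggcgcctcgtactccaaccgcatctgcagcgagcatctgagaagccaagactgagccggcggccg
The single match begins at -64. Such a match, on either strand, occurs in 5 of the 18 measured list members for which a promoter was found (27.8%). It occurs in 12.4% of promoters of genes past the filter and in 8.32% of all promoters. Among all genes at least 2-fold higher the share was 9.46%, and among those lower 7.41%. The list's share may follow from how the list was made.

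**Figure D4:**
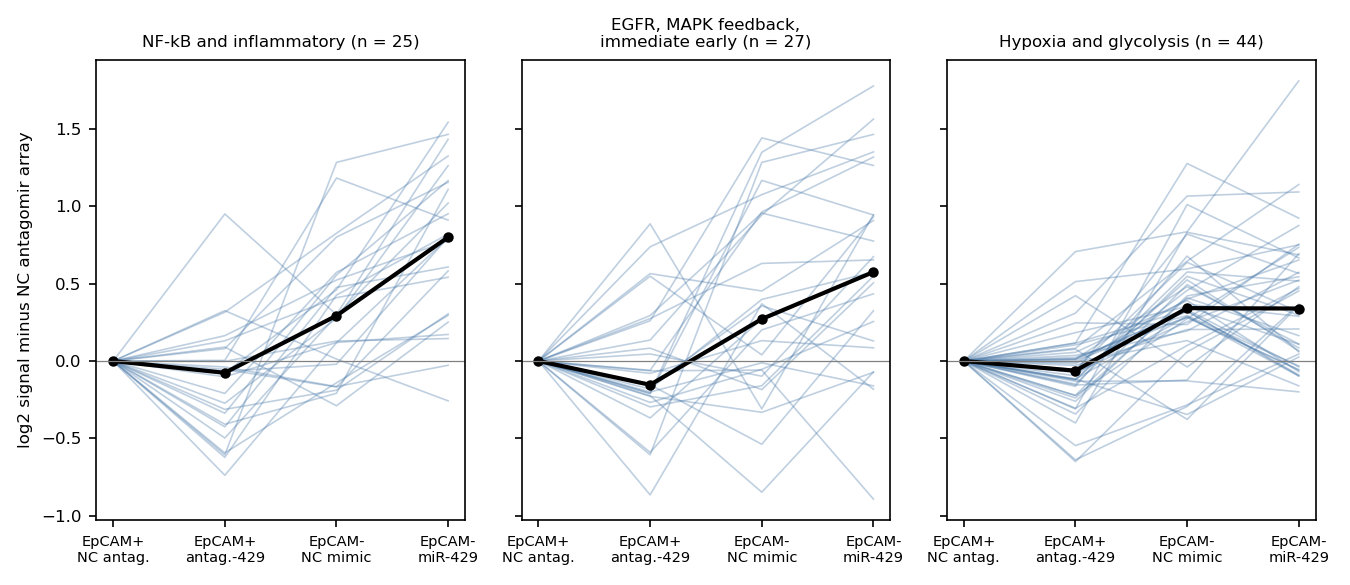
Log2 signal minus that of the EpCAM-positive control array (vertical axis) on each of the 4 arrays for members of 3 lists (thin lines) with their median (black). The NF-kB median is 0.29 on the NC mimic array and 0.80 on the miR-429 mimic array, whereas the hypoxia median is 0.34 on both.

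Hypoxia and glycolysis genes had a median of 0.34, with 3 of 44 measured members at least 2-fold higher and 34 above 0. Over all genes these shares were 1.29% and 47.0%. On the NC mimic array the same 44 genes also had a median of 0.34 over the control, and 3 were past 2-fold. The share of all genes past 2-fold there was 1.48%. HK2, a hexokinase, was the exception in size. It had 7962 on the mimic array, 2271 on the control, 4050 on the NC mimic array and 3707 on the antagomir-429 array (1.81), by its only probe set past the filter. MXI1, a MYC antagonist induced by hypoxia, had 5610 and 2546 (1.14), with 3981 and 2696. P4HA1, a collagen prolyl hydroxylase, had 3550 and 1665 (1.09), with 3484 and 2064. HK2 was highest with the mimic, while P4HA1 was alike on both EpCAM-negative arrays.

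The bright glycolytic enzymes lay near 0, in values picked once they were known. The aldolase ALDOA had -0.07, GAPDH -0.16, the phosphoglycerate kinase PGK1 -0.04, the enolase ENO1 -0.09 and the lactate dehydrogenase LDHA -0.03. Among targets of the hypoxia-inducible factors, the growth factor VEGFA had 0.73, the glucose transporter SLC2A3 0.75, the pyruvate dehydrogenase kinase PDK1 0.75, ANGPTL4 0.92 and the lipid droplet protein HILPDA 0.69. The HK2 promoter is shown as that of the highest member, with capitals for matches to ACGTG, the core of the hypoxia response element, on either strand.
HK2, chr2:74833877-74834176, plus strand: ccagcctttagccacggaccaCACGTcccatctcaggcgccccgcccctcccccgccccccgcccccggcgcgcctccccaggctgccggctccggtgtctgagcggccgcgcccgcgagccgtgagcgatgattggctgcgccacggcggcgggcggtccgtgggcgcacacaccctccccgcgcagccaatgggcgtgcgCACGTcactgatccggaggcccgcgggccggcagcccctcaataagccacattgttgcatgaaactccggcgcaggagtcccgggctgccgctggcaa
The 2 matches begin at -229 and -48, and the latter overlaps a match to TGACGT. A promoter was found for 39 measured list members, of which 18 hold ACGTG (46.2%), against 28.1% of genes past the filter and 21.6% of all promoters. The list was made of known hypoxia and glycolysis genes, so its share may follow from that choice. Among all genes at least 2-fold higher the share was 33.8%, and among those lower 11.1%.

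Mitotic genes had a median of 0.34 over 36 measured members of 50, with 2 at least 2-fold higher, 0 lower and 28 above 0. Over all genes these shares were 1.29%, 0.431% and 47.0%. The topoisomerase TOP2A had 444 on the mimic array, 203 on the control, 504 on the NC mimic array and 365 on the antagomir-429 array (1.13). ANLN, an actin-binding protein of the cleavage furrow, had 972 and 455 (1.09), with 1010 and 548. For both genes the EpCAM-positive control array was the lowest and the EpCAM-negative arrays were alike. Against the antagomir-429 array the median was 0.14, so this list's value depended on which EpCAM-positive array was subtracted. The cyclin CCNB1 had 0.79, the kinases AURKA and PLK1 0.71 and 0.29, and CDK1 0.06, values picked once they were known.

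DNA replication and S-phase genes did not share that position. Their median was -0.07 over 50 measured members of 53, with 0 past 2-fold and 22 above 0. Both counts are near the shares of all genes, 1.72% and 47.0%. RRM1, the large subunit of ribonucleotide reductase, had 0.93 and the helicase subunit MCM5 -0.65. For CDK inhibitors and targets of p53 the median was 0.03 over 24 measured members, between RPS27L (-0.56) and the death receptor FAS (0.70). Apoptosis regulators also had 0.03 over 26 members, with the TRAIL receptor TNFRSF10A at 0.83 as the highest. Of these lists 0 members were past 2-fold, which is near the 1.72% of all genes.

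Epithelial genes gave little sign of a common difference. Of 31 members 16 passed the filter, 1 of them was at least 2-fold higher, 0 were lower, and the median was 0.14. Over all genes 1.29% were at least 2-fold higher and 0.431% lower. MAL2, a protein of apical transport, had 710 on the mimic array, 234 on the control, 380 on the NC mimic array and 304 on the antagomir-429 array (1.60). The tight-junction scaffold TJP3 had 0.84 and the desmosomal plaque protein DSP 0.46. The serine protease ST14 had -0.67 and the protease inhibitor SPINT2 -0.85. KRT8 and KRT18 had -0.23 and -0.18. All but MAL2 were picked once their values were known.

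TJP1 and DSP, picked in the same way, showed a different layout. TJP1, another tight-junction scaffold, had 554 on the mimic array, 581 on the control and 656 on the antagomir-429 array, but 215 on the NC mimic array, a difference from the control of -0.07. DSP had 4230, 3065 and 3859, against 1662 on the NC mimic array. In these genes the NC mimic array was the low one and the mimic cells lay nearer to both EpCAM-positive samples.

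Mesenchymal genes and regulators of epithelial-mesenchymal transition had a median of 0.14 over 20 measured members of 31, with 0 past 2-fold and 12 above 0. Over all genes these shares were 1.72% and 47.0%. The matrix protein TGFBI had 0.89 and the fibronectin receptor subunit ITGA5 0.84. ITGA5 had 1535 on the mimic array and 859 on the control, with 1874 and 664 on the NC mimic and antagomir-429 arrays, so both EpCAM-negative samples were higher. The intermediate filament VIM had -0.19 and the collagens COL1A1 and COL5A1 -0.50 and -0.39, members picked once their values were known. ZEB1 and ZEB2 did not pass the filter. The brightest of 4 ZEB1 probe sets had 91 on the mimic array, 123 on the control, 80 on the NC mimic array and 65 with antagomir-429, and all 5 of ZEB2 were at or under 52.0 on every array.

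Listed targets of the microRNAs with the seed AAUACUG, drawn from published work, were not lower as a group. Of 64 listed, 36 passed the filter, 24 were too dim and 4 were not named. The median was 0.06, and 22 of 36 lay above 0, against 47.0% of all genes. These were long genes, with a median genomic span of 43.0 kb against 25.2 kb for all genes. With differences centred within 5 bins of gene span the list's median was -0.01. Past 2-fold were 0, which is near the 1.72% of all genes. The lowest were the adaptor subunit AP1S2, with 447 on the mimic array, 757 on the control, 641 on the NC mimic and 799 on the antagomir-429 array (-0.76), the formin FHOD1 (-0.67) and the cofilin CFL2 (-0.57). AP1S2 was lowest with the mimic, but the difference was under 2-fold, and its other probe sets past the filter gave -0.63 and -0.08. The highest was ERRFI1, a feedback inhibitor of EGFR, with 3009 and 1577 (0.93), and 1621 and 2305 on the NC mimic and antagomir-429 arrays. ERRFI1 was highest with the mimic. FHOD1 and CFL2 were picked once their values were known.

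RBBP4, a histone-binding subunit of chromatin complexes which has been linked to miR-429, had 6884 on the mimic array and 6599 on the control (0.06). The antagomir-429 array had 7029 and the NC mimic array 4845, so the NC mimic array alone was lower. The 3 RBBP4 probe sets past the filter lay between -0.38 and 0.20. Among members of RBBP4 complexes, 30 of 35 were measured, with a median of 0.05 and 0 past 2-fold, near the 1.72% of all genes. The largest differences were those of the corepressor scaffold SIN3A (0.55) and the pocket protein RBL2 (0.54). E2F1 had 558 and 508 (0.14). POU5F1 had no probe set that names it alone and is not given. The small RNA machinery, through which a mimic acts, had a median of 0.14 over 14 measured members of 28, with the microRNA-processing nuclease DROSHA at 0.60 and the export factor XPO5 at 0.48. DROSHA had 3817 and 2522, beside 3734 with antagomir-429 and 1548 on the NC mimic array, and the list's median against the antagomir-429 array was -0.0024.

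Receptors and ligands of TGF-beta, BMP and Notch signalling had a median of 0.22 over 29 measured members of 43, with 23 above 0. Over all genes 47.0% lay above 0 and 1.72% were past 2-fold. TGFBR1, the type I TGF-beta receptor, was the only member past 2-fold. It had 1740 on the mimic array and 685 on the control, with 1560 on the NC mimic array and 641 with antagomir-429 (1.34), so both EpCAM-negative samples were high. The ligand TGFB1 had 0.85, the type II receptor TGFBR2 0.16 and the effectors SMAD2 and SMAD3 0.42 and 0.30. ID3, a target of BMP signalling, had -0.45 and NOTCH1 -0.42. All but TGFBR1 were picked once their values were known.

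Matrix proteases, laminins and integrins had a median of 0.11 over 24 measured members of 44, with 2 at least 2-fold higher. The share of all genes was 1.29%. The serpin SERPINE2, an inhibitor of thrombin and urokinase, had 2026 and 772 (1.39), with 1009 on the NC mimic and 1109 on the antagomir-429 array. The collagen COL12A1 had 622 and 293 (1.09), with 156 and 370, but a difference of 0.65 by its other probe set past the filter. Both were highest with the mimic, and COL12A1 was lowest on the NC mimic array.

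Targets of NRF2 and aldo-keto reductases, which detoxify electrophiles, had a median of -0.16 over 31 measured members of 39, with 9 above 0 against 47.0% of all genes. AKR1C2 was the only member past 2-fold, where 1.72% of all genes were. Its relatives AKR1C3 (15204 and 23986, -0.66) and AKR1C1 (-0.33) and the aldehyde dehydrogenase ALDH3A1 (-0.95) were also below 0. For AKR1C3 the NC mimic array had 16916 and the antagomir-429 array 24407, so the fractions differed there with either mimic. The quinone reductase NQO1 had -0.42, while the thioredoxin reductase TXNRD1 had 0.66 and the glutathione peroxidase GPX2 0.82. All but AKR1C2 were picked once their values were known.

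Of the hepatocyte genes 8 of 46 passed the filter, with a median of 0.09. PCK1, the cytosolic enzyme of gluconeogenesis, had 1806 on the mimic array, 688 on the control, 1325 on the NC mimic array and 477 with antagomir-429 (1.39). Its mitochondrial counterpart PCK2, picked once its value was known, had -0.50. Integrated stress response genes and ER chaperones had a median of 0.08 over 39 measured members of 45. The mitochondrial folate enzyme MTHFD2 was the only one past 2-fold, with 7493 and 3724 (1.01). It had 7828 on the NC mimic array and 6940 with antagomir-429, so the control array alone was low. Sterol and fatty acid synthesis had a median of 0.11 over 26 measured members of 40 and 0 past 2-fold, between FADS2 (-0.73) and HMGCS1 (0.78), an enzyme of the mevalonate pathway. The interferon response had -0.14 over 31 measured members of 55, with 10 above 0 and 0 past 2-fold, between OASL (-0.63) and the kinase EIF2AK2 (0.79). Over all genes 47.0% lay above 0 and 1.72% were past 2-fold.

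Cytosolic ribosomal proteins and respiratory chain subunits were mostly lower, by small amounts. Of 51 ribosomal proteins measured 50 lay below 0, with a median of -0.19, and of 64 respiratory chain subunits 57, with a median of -0.23. The largest differences were RPL36 (-0.43) and RPL27A (0.53) among ribosomal proteins, and ATP5MC1 (-0.65), a subunit of ATP synthase, and NDUFS1 (0.76), of complex I, among respiratory ones. The mimic array was the lowest of the 4 for 50 of 51 and 56 of 64, against 33.3% of all genes, while on the NC mimic array the medians over the control were 0.18 and 0.14. These lists hold short genes, with median genomic spans of 5.04 and 10.8 kb against 25.2 kb for all. The difference went with gene span over the whole table, and the bin medians went from -0.14 for the shortest genes (4.44 kb at the median) to 0.14 for the longest (123.7 kb). The Spearman rho across 8128 genes, which are not independent replicates, was 0.25, and for the NC mimic array over the control it was -0.21. With differences centred within span bins, the ribosomal median was -0.06, the respiratory median -0.11, the NF-kB median 0.92 and that of the immediate early and MAPK genes 0.71. The interferon list, also of short genes (8.50 kb at the median), had -0.04 in place of -0.14. Under quantile normalization the ribosomal median was -0.01.

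**Figure D5:**
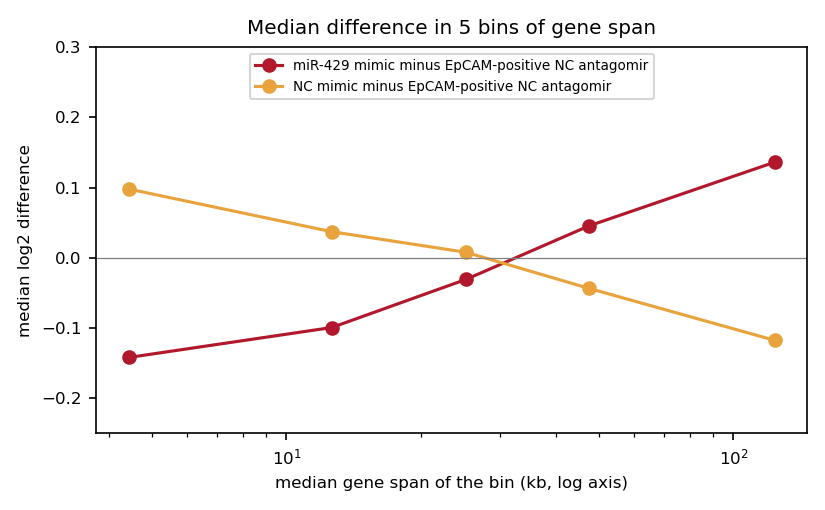
Median log2 difference from the EpCAM-positive control (vertical axis) in 5 bins of genes by genomic span (horizontal log axis, kb), for the miR-429 mimic array (red) and the NC mimic array (orange). The red line goes from -0.14 to 0.14 and the orange line runs the other way, from 0.10 to -0.12.

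Across the 4 arrays, few genes set the mimic array apart from every other sample by 2-fold. There were 6 above (0.0738%) and 7 below (0.0861%). Those above were EPCAM, UCA1, the scaffold protein SASH1 (1369 against 590 to 612), LCN2, TNFAIP3 and LINC02846. Those below were AKR1C2, FBXO28, MIR1915HG, HEXD, SSBP4, the receptor transporter RTP3 and the kinase CDK20. By the same rule 4 genes were low and 0 high on the EpCAM-positive control array, and 5 low and 0 high with antagomir-429. The NC mimic array had 25 low and 1 high, more than any other array.

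For the 25 genes that were at least 2-fold low on the NC mimic array alone, the mimic cells lay at the level of the EpCAM-positive control. Their differences ran from -0.38 to 0.41 with a median of 0.05. All 25 of 25 were within 2-fold, but so were most genes, with 1.72% past it. The rule that chose the 25 genes used all 4 arrays, so these values are a description. They included the scaffold ITSN1 (142 on the NC mimic array, 507 and 493 on the compared arrays), the DNA dioxygenase TET3 (183, 541 and 496), the chromatin remodeller subunit ARID1A (476, 1046 and 1094), TJP1 and FBN1, a microfibril protein. These genes were picked once their values were known. Their median span was 92.8 kb, against 25.2 kb for all genes, and the part of span in their position was not tested.

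Both EpCAM-negative arrays stood at least 2-fold above both EpCAM-positive arrays for 6 genes (0.0738%) and below for 1 (0.0123%). FOS had the widest gap (1.35), followed by IER3 (1.28), CA5B (1.22), TGFBR1 (1.19), the insulin-like growth factor-binding protein IGFBP1 (1.14) and ETV4. IGFBP1, a secreted hepatic protein, had 40984 on the mimic array and 18580 on the control, with 41079 and 15097 on the other arrays. The only gene below was GPR39, a zinc-sensing receptor, with 274 and 299 on the EpCAM-negative arrays and 602 and 670 on the EpCAM-positive ones. With the NC mimic and NC antagomir arrays, or the miR-429 mimic and NC antagomir arrays, in place of the EpCAM-negative pair, 0 genes stood 2-fold above the other arrays. Genes 2-fold below were not counted for these pairs, and there was at least 1. TEAD1 had 233 and 222 on the NC mimic and NC antagomir arrays. It had 527 on the miR-429 mimic array and 563 with antagomir-429.

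The antagomir-429 and NC mimic arrays also compare the fractions and share no array with the comparison described here. Of 79 genes (0.972%) at least 2-fold lower on the antagomir-429 than on the NC mimic array, 60 were higher in the mimic cells than in the EpCAM-positive control, against 47.0% of all genes, with a median of 0.38. Among them 13 were at least 2-fold higher, or 16.5% of these 79 genes against 1.29% of all genes, and 12.4% of the 105. The 13 included FOS, IER3, ETV4, DUSP5, TGFBR1, PCK1, IGFBP1, SDR16C5, CA5B and the ecto-nucleotidase NT5E (1.24). Of 135 genes (1.66%) at least 2-fold higher on the antagomir-429 array, 82 were also higher in the mimic cells than in the control. The median of the 135 was 0.10, and 2 of them (1.48%) were at least 2-fold lower, GPR39 and ASAP3 (-1.15), against 0.431% of all genes. In the other direction, 4 of the 135 (2.96%), MTOR, COL12A1, DRAM1 and TEAD1, were at least 2-fold higher in the mimic cells. The share of all genes was 1.29%. Thus genes higher on the NC mimic than on the antagomir-429 array were mostly higher in the mimic cells too. Genes lower on the NC mimic array were not mostly lower. The 135 include the 25 genes on which the NC mimic array alone was at least 2-fold low. This pair of arrays also differs in both fraction and reagent, whose parts cannot be told apart. Across all 8130 genes the Pearson correlation of these array-disjoint differences was -0.04 and the Spearman correlation 0.004. NT5E, ASAP3 and the 4 genes of the other direction were picked once their values were known.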

How the data were processed

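Total RNA of 4 samples was hybridised to 1 Affymetrix U133 Plus 2.0 array each, per the labels' protocols. The deposited values are log2 signals made by the authors with MAS5, per the submitters' processing notes; its version was not given in the sources used here. Scaling and log base were read from the values, since the signals have the same trimmed mean (2% at each end) on every array. No further scaling was applied.

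Each array holds 54675 probe sets, 62 of them controls. The platform annotation gave 1 symbol for 41097, several for 1801 and none for 11777, so some listed genes were not named. Of the first, 41043 matched RefSeq (GRCh38.p14) by Entrez identifier. That table gave names and spans; its assembly also holds the printed sequences, and the arrays name no build. Of the members named here, EPCAM and some others have no full promoter in the table. A full promoter was found for 6 of the 9 NF-kB members at least 2-fold higher and for 1 of the 6 MAPK ones.

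Genes past 2-fold, list counts and medians were computed in Python 3.11.15 with pandas 2.3.3 and NumPy 2.4.6, and the counting was tested on simulated arrays. Members, lists and tests were chosen with earlier results of these data known. The text names EPCAM, RBBP4, E2F1, ZEB1, ZEB2 and POU5F1, the 15 largest differences each way, up to 6 list members each way past 2-fold (or the 2 largest), and up to 10 genes each way in the 4-array patterns; others, and the promoters shown, were picked once values were known. Depth is set by the arrays, whose number limits the precision.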

Additional observations from a re-analysis of the deposited data

How the results depend on the processing

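With 1 array a group, leaving out a replicate could not be run, and no paired analysis was possible because each group has 1 array. Counts of genes past 2-fold moved most with the filter on low signals. There were 706 higher and 426 lower with the filter at the median, 2606 and 2098 with none, and 18 and 3 at the 90th percentile. Quantile normalization gave 58 lower and 91 higher, in place of 35 and 105. The NF-kB median was 0.54 at the 90th percentile. The tumour-initiating median was -0.085 with no filter, which lets in dim members, and 0.47 against the antagomir-429 array, where EPCAM had 2.07. Against that array the small RNA median was -0.0024 and PYGB had -0.067, because its control array signal alone was low. The other list medians kept their direction or lay within 0.1 of 0 in the comparison as reported. A median counted as moved beyond 0.2 and a gene beyond the scatter of genes of like signal. Of 445 values of named genes past 2-fold over the 9 alternatives, 414 stayed past it the same way and 1 turned sign. Of 37 gene values that moved, 29 came from the antagomir-429 array and 8 from the median over probe sets.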
